A study of Mus musculus with 51 samples.

Results

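The genes described here carry out glycolysis or report on oxygen supply: glucose transporters, the enzymes that split glucose into pyruvate, the enzymes and transporters that decide what becomes of pyruvate, the oxygen-sensing proteins and a set of their target genes. The list named 35 genes, and 29 of them were analysed, of 12393 genes with a usable probe set on the array. A gene was represented by its brightest probe set, the set with the highest mean log2 signal over all 51 arrays among those that the platform annotation assigns to that gene alone. Hk3, Gpi1, Pfkfb4 and Eno1 had no probe set under their names in the annotation used, the 3 sets of Bnip3l were shared with a pseudogene, and Gapdh was carried by array control sets and by 2 shared sets, so these 6 genes were not analysed. Ero1l is listed as Ero1a by the annotation.

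The arrays measured RNA of alveolar macrophages, the phagocytes that live in the airspaces, taken from mice that had received polystyrene beads or spores (conidia) of Aspergillus fumigatus, a mould, in vivo. The tested genotype was gp91phox-/- (KO), in which the catalytic subunit of the phagocyte NADPH oxidase, encoded by Cybb, is missing, and the comparison genotype was C57Bl/6 (WT). In KO mice there were 7 groups of 3 arrays each: conidia at the doses labelled e6 and e7 and a mock treatment at 2 h and at 4 h, and untreated mice at 0 h. In WT mice the same 7 conditions had 4 arrays each, and an eighth group of 2 arrays came from mice given beads and sampled at 4 h. The labels give e6 and e7 without a unit, no bead number, no strain background for the KO mice, no count of mice behind an array and no array date. P-values therefore measure the spread between arrays as labelled, and genotype and any processing batch cannot be told apart. In these bulk samples, fewer cells of a type and less RNA per cell cannot be told apart.

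Glycolysis turns glucose into pyruvate in the cytosol and yields ATP without oxygen. Pyruvate then either enters mitochondria or is reduced to lactate and exported. When oxygen is scarce, prolyl hydroxylases stop marking hypoxia-inducible factor (HIF) for destruction, and HIF switches on most glycolytic genes along with genes for vessel growth, mitophagy and collagen synthesis; in macrophages, microbial signals can raise Hif1a as well. The core of the DNA element that HIF binds is written ACGTG or GCGTG.

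The promoters of 4 genes are shown because they give pairs that differed in opposite directions below: Ldha and Pdk1, after conidia in WT macrophages, and Pgam1 and Bnip3 between the genotypes. Each window runs from 250 bases before to 50 bases after a transcription start in RefSeq (mouse, GRCm38.p6), 5′ to 3′ on the gene's own strand, with capitals on every ACGTG or GCGTG read on either strand. The windows are chr7:46845554-46845853 (plus strand) for Ldha, chr2:71872974-71873273 (plus) for Pdk1, chr19:41911621-41911920 (plus) for Pgam1 and chr7:138909457-138909756 (minus) for Bnip3.
Ldha: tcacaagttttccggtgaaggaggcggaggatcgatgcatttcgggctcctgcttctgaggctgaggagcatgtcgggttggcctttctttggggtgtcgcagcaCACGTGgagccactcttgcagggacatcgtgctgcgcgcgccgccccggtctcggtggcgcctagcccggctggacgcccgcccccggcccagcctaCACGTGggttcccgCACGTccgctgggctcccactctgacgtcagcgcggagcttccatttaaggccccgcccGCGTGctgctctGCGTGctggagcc
Pdk1: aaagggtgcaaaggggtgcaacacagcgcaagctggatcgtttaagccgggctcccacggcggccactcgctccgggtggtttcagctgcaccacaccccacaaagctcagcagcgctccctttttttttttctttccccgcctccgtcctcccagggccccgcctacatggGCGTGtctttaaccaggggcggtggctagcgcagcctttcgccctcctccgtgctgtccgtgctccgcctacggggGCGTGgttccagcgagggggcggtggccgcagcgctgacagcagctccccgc
Pgam1: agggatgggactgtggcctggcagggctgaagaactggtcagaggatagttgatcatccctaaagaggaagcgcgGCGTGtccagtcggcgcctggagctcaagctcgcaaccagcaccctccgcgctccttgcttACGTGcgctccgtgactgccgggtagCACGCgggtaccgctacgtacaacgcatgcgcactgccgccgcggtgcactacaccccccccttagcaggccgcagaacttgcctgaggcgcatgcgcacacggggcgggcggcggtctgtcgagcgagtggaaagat
Bnip3: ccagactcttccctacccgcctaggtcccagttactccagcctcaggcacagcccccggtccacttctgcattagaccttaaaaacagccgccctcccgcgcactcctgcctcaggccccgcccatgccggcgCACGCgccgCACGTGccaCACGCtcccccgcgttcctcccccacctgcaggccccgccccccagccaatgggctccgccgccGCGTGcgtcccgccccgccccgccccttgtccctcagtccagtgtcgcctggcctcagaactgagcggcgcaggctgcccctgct
The Ldha window held ACGTG 5 times and GCGTG 2 times, where a palindromic CACGTG counts once on each strand. The Pdk1 window held no ACGTG and 2 GCGTG, the Pgam1 window 1 and 2, and the Bnip3 window 2 and 3. RefSeq windows were found for 27 of the 29 genes, 39 windows in all. ACGTG lay in 23 of these windows (59%), against 19.6% of all 32851 windows of the same length. Some genes had several windows, and in 20 genes at least 1 window held ACGTG. Either core lay in 79.5% of the member windows and in 43.8% of all windows. The genes were listed for glycolysis and hypoxia, so these shares are not independent of that choice. A match describes letters in a window and is not evidence of a bound site.

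All values below are log2 of the deposited signal, so a difference of 1 is a doubling, and ± gives the limma standard error of each difference. A gene was called at a Benjamini-Hochberg adjusted p under 0.05 over all 22626 tested probe sets. Cybb checked the genotype labels, with a log2 signal of 6.77 to 9.06 on the 21 KO arrays and 10.59 to 12.12 on the 30 WT arrays. Arrays of 1 group correlated between 0.899 and 0.949 over probe sets. All 12 alveolar macrophage markers had a signal of 50 or more on every array. Of 10 lung epithelium markers, Sftpc, Scgb1a1, Epcam and Cdh1 also reached 50 on all 51 arrays, and the others on 6 (Aqp5) to 43 (Sftpd and Krt8). So did S100a8, Csf3r, Mmp8 and Fcgr3 of 14 neutrophil markers, with the others at 50 on 1 (Camp and Mpo) to 32 arrays (Ltf). Batf3 did so among the monocyte and dendritic cell markers, with the others at 50 on 3 (Vcan) to 49 arrays (Ccr2). B cell and erythroid markers were below 50 on most arrays. Summed neutrophil marker signal was high on 3 WT arrays at 4 h, mock array 3 (14.87), e7 array 3 (13.41) and e6 array 4 (13.82), against 11.64 to 12.47 on the other 11 WT arrays at 4 h. On the first principal component of the WT 4 h arrays, e7 arrays 2 (-48.23) and 3 (-95.3) and beads array 1 (-137.3) lay away from the rest. On the first component of all 51 arrays, the 12 arrays of KO 2 h e7, KO 4 h mock, KO 4 h e6 and KO 4 h e7 (21.36 to 128.1) and beads array 1 (106.6) lay apart from the other arrays (-49.75 to -0.55). The median signal was 90.96 to 115.9 on those 12 arrays and 117.7 on beads array 1, against 68.8 to 93.3 on the others.

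Most glycolytic genes were well measured in every condition. Of the 29 genes, 20 had a signal of 50 or more on all 51 arrays, among them Hk1 and Hk2, which phosphorylate glucose, Pfkl and Pfkp, 2 of the phosphofructokinases that commit it to glycolysis, Aldoa, Tpi1, Pgk1, Pgam1, Pkm and Ldha. The neuronal-type enolase Eno2 reached 50 on 2 arrays, the angiogenic factor Vegfa and the vasodilator peptide Adm on 3 each, the prolyl hydroxylase Egln3 on 6 and the mTOR inhibitor Ddit4 on 14. Differences in these 5 genes rest on dim signals. The steadiest genes across arrays of a group were Aldoa and Pgam1, with a pooled within-group SD of 0.13 and 0.15. Among the genes above 50 on all arrays, group means ranged most for Aldoc (2.15), Pfkl (1.80) and Slc2a1 (1.72), and least for Ero1l (0.50), a disulfide-forming oxidase of the endoplasmic reticulum, and the phosphoglycerate kinase Pgk1 (0.55).

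**Figure D1:**
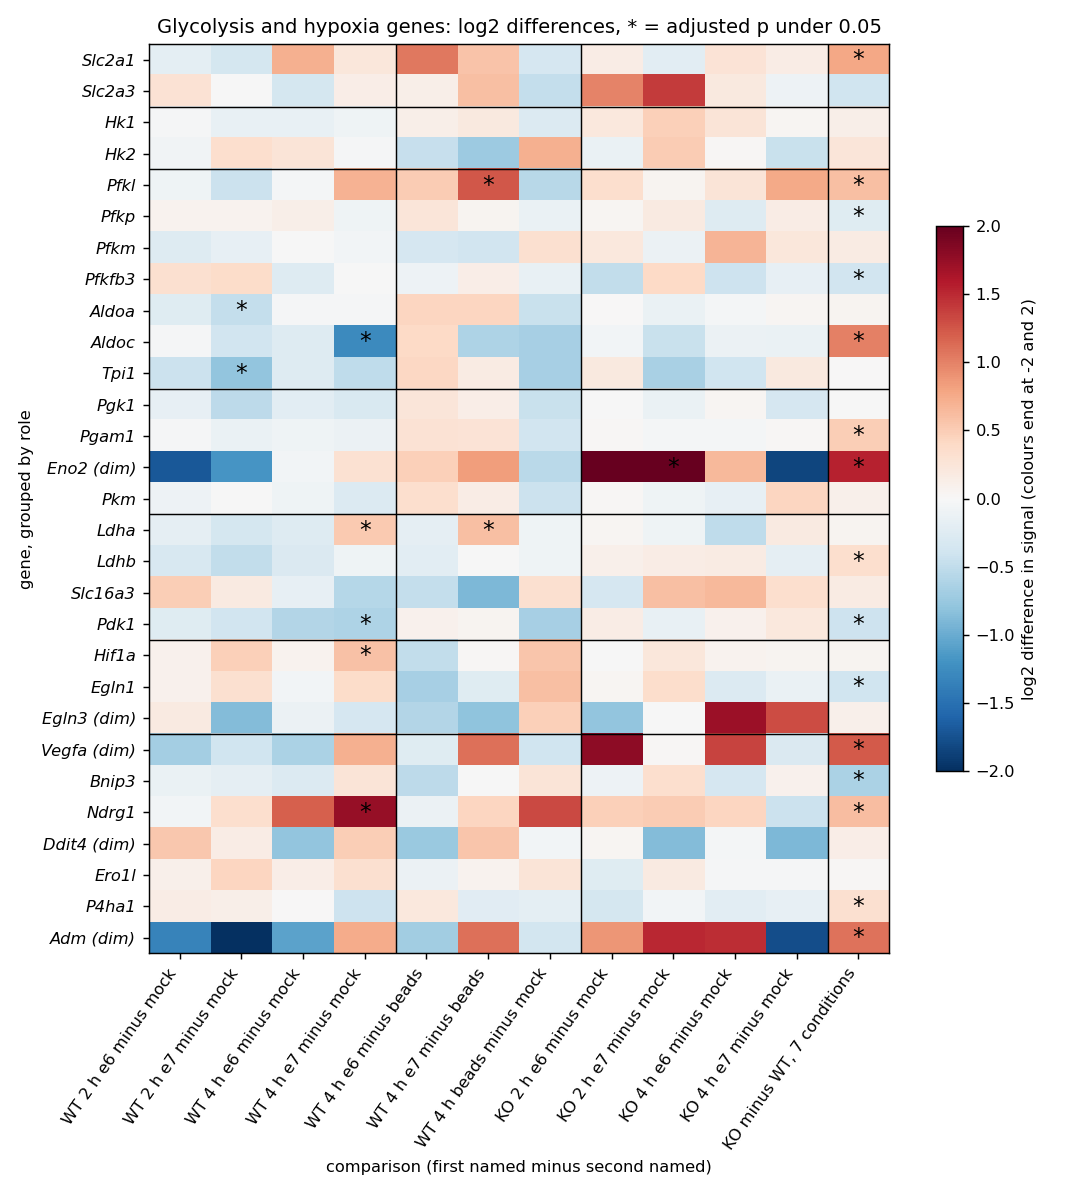
Log2 differences of the 29 analysed genes (down, grouped by role) in 12 comparisons (across), with the first named group minus the second. Red is higher, blue lower, an asterisk marks an adjusted p under 0.05 in limma, and "dim" marks genes with a signal of 50 or more on fewer than 26 of the 51 arrays. Calls are few in the conidia columns and gather in the genotype column at the right, where 15 genes are marked.

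The first comparison asks what conidia did to these genes in WT macrophages within 2 h. At the e7 dose, 2 of 29 genes were lower than after mock and none was higher, against 1.61% of all probe sets called (0.844% higher and 0.769% lower). Both encode adjacent steps of glycolysis: Aldoa, the main aldolase, which splits fructose bisphosphate, and Tpi1, the isomerase that interconverts the 2 products. The 29 genes had a median difference of -0.16, against -0.02 over all 12393 genes. The WT 2 h mock group had the highest mean of all 15 groups for Aldoa (13.18) and Tpi1 (11.36). Untreated WT mice had 12.84 and 10.77, against 12.70 and 10.56 after e7 conidia. Ldha was 12.99 after mock, 12.63 in untreated mice and 12.64 after e7 conidia, and Pgk1 12.79, 12.50 and 12.27. No member was called between WT mock and untreated mice at 2 h. At the e6 dose no gene was called, and no probe set of the whole array was (0%, with 945 at an unadjusted p under 0.05).

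Aldoa signal was 12.55, 12.62, 12.83 and 12.80 on the WT 2 h e7 arrays, against 13.14, 13.29, 13.34 and 12.96 on the mock arrays. Every e7 array lay below every mock array, and the e6 arrays (13.12, 13.10, 12.71 and 12.84) overlapped both. The difference between e7 and mock was -0.48 ± 0.11 (limma, adjusted p = 0.0152). Tpi1 was 10.32, 10.46, 10.66 and 10.80 after e7 conidia, against 11.36, 11.53, 11.51 and 11.02 after mock, again without overlap. Its difference was -0.79 ± 0.20 (limma, adjusted p = 0.0366), and its other 2 probe sets were also called lower, by 1.14 and 0.95 on the log2 scale. Of the 4 Aldoa sets 3 were called, all lower. Pgk1, which makes the first ATP of the pathway, and Ldha, which reduces pyruvate to lactate, did not pass the test: their differences were -0.52 ± 0.17 (limma, adjusted p = 0.0991) and -0.35 ± 0.14 (limma, adjusted p = 0.209), with every e7 array below every mock array in both. In the same 2 groups, the log2 ratio of 3′ to 5′ actin control signal was read as a quality measure of the labelled RNA. It was 1.39 to 4.01 on the e7 arrays and 0.58 to 1.02 on the mock arrays. Whether RNA degradation raised this ratio was not tested. With this ratio as a covariate the difference was -0.36 for Aldoa (limma, adjusted p = 0.141) and -0.47 for Tpi1 (limma, adjusted p = 0.281), and neither was called. The adjusted p ran up to 0.213 for Aldoa and 0.281 for Tpi1 over all alternatives. Leaving out a single array ended the Aldoa call for 4 of 8 arrays (e7 arrays 1 and 2, mock arrays 2 and 3; highest adjusted p = 0.0919) and the Tpi1 call for 5 of 8 (those 4 and mock array 1; highest adjusted p = 0.142).

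At 2 h after e7 conidia in WT, 1.76% of all genes were called. In the lists of neighbouring pathways, whose sizes are given further below, the HIF coactivator Crebbp rose (0.80). Of the further HIF targets Ccng2 rose (0.84) and Fam162a fell (-0.65). Whether these calls hold with the actin ratio as a covariate was not tested.

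**Figure D2:**
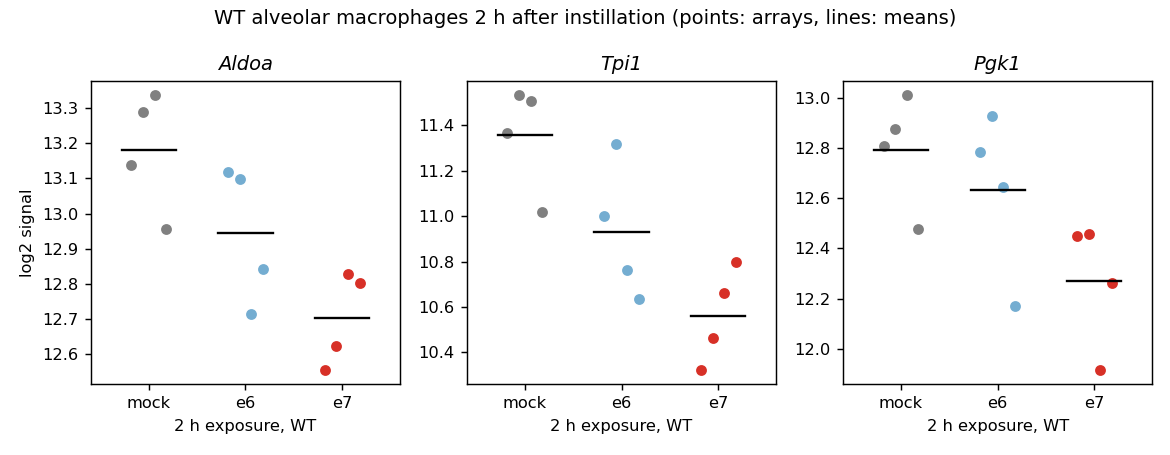
Log2 signal of Aldoa, Tpi1 and Pgk1 on each WT array at 2 h (points) with group means (lines), for mock, e6 and e7. The e7 arrays of each gene all lie below the mock arrays, and the e6 arrays of Aldoa and Tpi1 spread across both; Aldoa after e7 is 12.55 to 12.83.

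At 4 h the e7 dose gave the most calls of the 8 comparisons of conidia with mock, 15.5% of all probe sets (5.84% higher and 9.68% lower). Of the 29 genes, 3 rose and 2 fell. Those that rose were Ndrg1, a stress- and hypoxia-responsive gene, Hif1a, the oxygen-regulated subunit of HIF, and Ldha. Those that fell were the aldolase Aldoc and Pdk1, the kinase that shuts pyruvate dehydrogenase and so keeps pyruvate out of mitochondria. The share of members called, 17.2%, was close to the 17.5% of all genes called. Ldha and Pdk1, both textbook HIF targets, thus differed from mock in opposite directions on the same arrays.

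Ldha was 13.24, 13.18, 13.17 and 13.10 on the WT 4 h e7 arrays, against 12.54, 12.63, 12.62 and 12.82 on the mock arrays. The e7 arrays were tightly grouped and all above every mock, e6 (12.02 to 12.72) and beads (12.54 and 12.59) array. The difference from mock was 0.52 ± 0.14 (limma, adjusted p = 0.0105), a 1.43-fold higher signal. Hif1a was 12.00, 12.45, 12.66 and 11.96 after e7 conidia, against 11.62, 11.46, 11.92 and 11.72 after mock. The e7 arrays again lay above all mock arrays, by a small margin for arrays 1 and 4, and the difference was 0.59 ± 0.17 (limma, adjusted p = 0.0154). The other 3 Hif1a probe sets differed from mock by 0.25, -1.02 and 1.21, and only the last of these was called. Ndrg1 was 9.02, 7.70, 8.29 and 7.13 after e7 conidia, against 6.02, 6.81, 7.65 and 4.70 after mock, so that 3 of 4 e7 arrays lay above all mock arrays. Its difference was 1.74 ± 0.41 (limma, adjusted p = 0.00297), the largest among the called members here, and 4 of its 5 probe sets were higher, 2 of them called.

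Aldoc was 9.50, 8.89, 7.61 and 9.23 after e7 conidia, against 10.26, 10.19, 10.13 and 9.75 after mock. Each e7 array was below each mock array, with array 3 far lower than the rest. The difference was -1.27 ± 0.24 (limma, adjusted p = 0.000475), and -0.87 without that array, still called. The second, dimmer Aldoc probe set did not follow, with a difference of 0.28 (limma, adjusted p = 0.657). Pdk1 was 9.75, 10.14, 10.08 and 9.64 after e7 conidia, against 10.83, 10.51, 10.39 and 10.34 after mock, without overlap. It differed by -0.61 ± 0.16 (limma, adjusted p = 0.00792), and its second probe set by -0.37 (limma, adjusted p = 0.136). The WT 4 h mock group had the highest Pdk1 mean of all 15 groups (10.52). Untreated WT mice had 10.26, and the WT groups given conidia at 2 h or 4 h had 9.75 to 9.94. Pfkl, the liver-type phosphofructokinase, missed the threshold narrowly, with 10.31, 9.61, 9.06 and 9.66 after e7 conidia, against 8.69, 8.61, 9.13 and 9.43 after mock (difference 0.70 ± 0.25, limma, adjusted p = 0.0501).

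**Figure D3:**
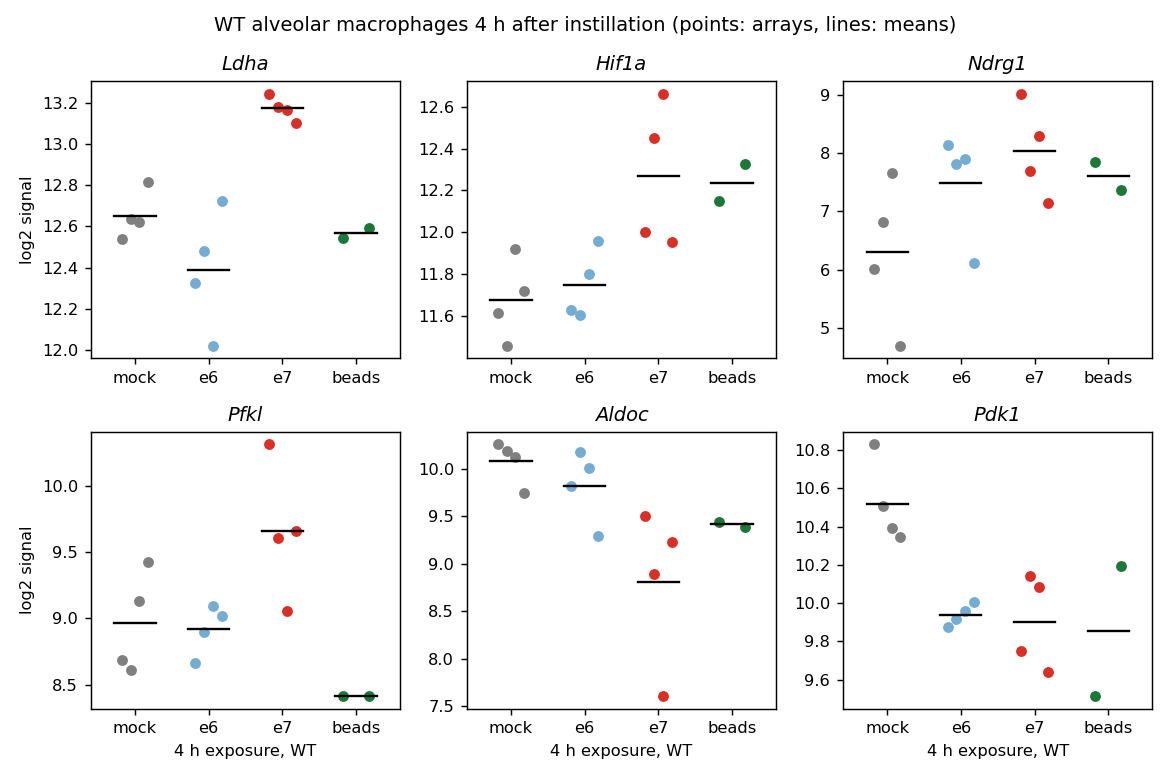
Log2 signal of 6 genes on each WT array at 4 h (points) with group means (lines), for mock, e6, e7 and beads. Ldha after e7 (13.10 to 13.24) stands above every other group, Aldoc and Pdk1 after e7 lie below mock, and Pdk1 is below mock after e6 and beads as well.

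These 5 calls depended on the probe sets and on which arrays were kept. As a mean over the probe sets of a gene, Hif1a and Aldoc were not called. Without e7 arrays 2 and 3, which lay apart on the first principal component, 1 gene was still called, Pdk1, at -0.82 (limma, adjusted p = 0.0269), while the Ldha difference was 0.52 (limma, adjusted p = 0.145) and that of Hif1a 0.30 (limma, adjusted p = 0.552). The Ldha difference lay between 0.48 and 0.57 under all 18 alternatives, whether called or not. Without the 3 arrays with high neutrophil markers 2 genes were higher and 2 lower: Ndrg1 and Pfkl, and Aldoc and Pdk1. Without those arrays the Ldha difference was 0.51 (limma, adjusted p = 0.0578) and that of Hif1a 0.54 (limma, adjusted p = 0.09). Hif1a lost its call without e7 array 2, e7 array 3 or mock array 2, and the other 4 genes kept theirs in each of the 8 single-array removals. Removals also added calls: Pfkl without e7 array 3 (0.90) or mock array 4 (0.85), Tpi1 without e7 array 1 (-0.62) or 4 (-0.67), Ero1l without e7 array 1 (0.44), Egln1 without e7 array 4 (0.47) and Pgk1 without mock array 4 (-0.49). In a fit to the 8 arrays of the 2 groups alone none of the 5 was called.

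The lower dose at 4 h did not give a call among the 29 genes, and 0.00884% of all probe sets were called. Its nearest members were Pdk1 and Ndrg1. Pdk1 was 9.88, 9.92, 9.96 and 10.00 after e6 conidia, below every mock array, with a difference of -0.58 ± 0.16 (limma, adjusted p = 0.489). Ndrg1 was 8.13, 7.80, 7.90 and 6.11, with a difference of 1.19 ± 0.41 (limma, adjusted p = 0.744); the fourth of these arrays is the e6 array with high neutrophil markers, and without the 3 such arrays the difference was 2.10 (limma, adjusted p = 0.0028). Without mock array 4, the lowest of the mock arrays, it was 0.66 (limma, adjusted p = 0.996). Slc2a1 was also called without those arrays (1.12, limma, adjusted p = 0.0185) and without mock array 3 alone (1.06, limma, adjusted p = 0.0346), against a difference of 0.72 with all arrays. Between the doses at 4 h, e7 over e6, 3 members rose and 1 fell, against 16.4% of all probe sets called (6.42% higher and 10% lower). Ldha was higher by 0.78 ± 0.14 (limma, adjusted p = 0.000293), Pfkl by 0.74 ± 0.25 (limma, adjusted p = 0.0342) and Hif1a by 0.52 ± 0.17 (limma, adjusted p = 0.0324), and Aldoc was lower by a difference of -1.02 ± 0.24 (limma, adjusted p = 0.00305). The Aldoc difference was -0.62 without e7 array 3 (limma, adjusted p = 0.0459), and -0.23 and not called as a mean over its probe sets. Without e7 arrays 2 and 3 only Ldha was called (0.79, limma, adjusted p = 0.0233). Single-array removal ended the Pfkl call for 4 of 8 arrays (e6 arrays 1 and 2, e7 arrays 1 and 2) and the Hif1a call for 5 of 8 (e6 arrays 1 to 3, e7 arrays 2 and 3), with adjusted p up to 0.168 and 0.193. The Hif1a call was also lost with quantile scaling and as a mean over its probe sets. Without e7 array 4, Egln1 (0.53) and Bnip3 (0.63) were called in addition. At 2 h no probe set differed between the doses (0% called, 1588 at an unadjusted p under 0.05).

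Beads are inert particles that macrophages also engulf, so this comparison sets the fungal particle beside an inert one. Against beads, e7 conidia raised 2 of 29 genes, Pfkl and Ldha, and lowered none, with 3.59% of all probe sets called (1.37% higher and 2.22% lower). Pfkl was 10.31, 9.61, 9.06 and 9.66 after e7 conidia, against 8.42 and 8.41 after beads, and the difference was 1.24 ± 0.30 (limma, adjusted p = 0.0186). Ldha was 13.10 to 13.24 after e7 conidia, against 12.54 and 12.59 after beads (0.61 ± 0.18, limma, adjusted p = 0.0446). The groups did not overlap in either gene. Without e7 arrays 2 and 3 Pfkl was still called (1.57, limma, adjusted p = 0.0152) and Ldha was not (0.61, limma, adjusted p = 0.144). With beads array 1 or 2 left out neither gene was called (adjusted p = 0.155 and 0.0805 for Pfkl, 0.27 and 0.12 for Ldha), and the Ldha call was also lost without e7 array 1, 2 or 3. Aldoa was called in addition without e7 array 3 (0.50) or 4 (0.40). Markers of other cells differed between the beads arrays: 9 of 9 monocyte and dendritic cell markers reached 50 on beads array 1 and 2 on beads array 2, against 3 or 4 on the e7 arrays. Their summed signal was 8.50 to 8.98 on the e7 arrays, against 9.77 and 8.84 on the beads arrays, and that of 8 endothelium and stroma markers 7.05 to 7.43, against 8.64 and 6.94. None of these markers was called between e7 and beads, with medians of -0.83 and -0.72, and their part in the result was not tested. The actin 3′ to 5′ ratio was 3.13 and 4.82 on the beads arrays, against 0.86 to 3.15 on the e7 arrays and 0.81 to 1.49 on the mock arrays; with this ratio as a covariate Pfkl was called at 1.14 (limma, adjusted p = 0.0311), Ldha was not (0.54, limma, adjusted p = 0.0763) and Aldoc was called lower (-1.20). Quantile scaling moved the median of all probe sets by 0.23 in this comparison and gave 439 probe sets called higher and 306 lower, against 309 and 503 as deposited; under it Pfkl was called (1.32) and Ldha was not (0.51).

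After e6 conidia no member differed from beads at the threshold (0.327% called). The closest was Slc2a1, the main glucose transporter of most cells, at 9.37, 9.01, 9.82 and 9.18 after e6 conidia, against 8.36 and 8.21 after beads (1.06 ± 0.31, limma, adjusted p = 0.105). Beads against mock gave no call among the members either (1.14% called). Aldoa (-0.45 ± 0.13, limma, adjusted p = 0.072), Pdk1 (-0.66 ± 0.20, limma, adjusted p = 0.0778) and Egln1, the main prolyl hydroxylase acting on HIF (0.60 ± 0.20, limma, adjusted p = 0.113), came nearest. Egln1 was 10.82 and 10.90 after beads, against 10.14, 10.32, 10.01 and 10.58 after mock. Without beads array 2, Pdk1 was called (-1.004, limma, adjusted p = 0.024). With all arrays Pdk1 differed from mock by -0.61 after e7 conidia, -0.58 after e6 conidia and -0.66 after beads, and these 3 values share the same 4 mock arrays. Quantile scaling moved the median of all probe sets by 0.16 for e6 against beads (137 higher and 46 lower, against 37 and 37 as deposited) and by -0.15 for beads against mock (152 and 320, against 125 and 132). With the 3 arrays high in neutrophil markers left out, Slc2a1 (1.12), Aldoa (0.46) and Egln1 (-0.71) were called for e6 against beads, and Ndrg1 (1.77) for beads against mock.

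In KO macrophages conidia gave 1 call among the members in 4 comparisons. It was Eno2 at 2 h after the e7 dose, where 8.65% of all probe sets were called (6.11% higher and 2.54% lower) and where all 3 e7 arrays lay apart on the first component of all 51 arrays, as did all KO arrays at 4 h, so no array set without them could be compared. Eno2 was 5.48, 5.78 and 4.08 after e7 conidia, against 0.93, 1.59 and 1.25 after mock, which gave a difference of 3.86 ± 0.99 (limma, adjusted p = 0.015). The groups did not overlap, but most of these values lie below a signal of 50, and with signals under 50 set to 50 the gene was not called. The call was also lost without KO e7 array 1 or 2 (highest adjusted p = 0.058). Tpi1 was 10.71, 10.26 and 10.17 after e7 conidia, against 11.31, 10.88 and 10.90 after mock (-0.65 ± 0.24, limma, adjusted p = 0.075). Quantile scaling moved the median of all probe sets by -0.26 in this comparison, gave 640 probe sets called higher and 933 lower, against 1382 and 575 as deposited, and left no member called. The e6 dose at 2 h gave no call (0%, with 865 probe sets at an unadjusted p under 0.05), nor did e7 (0.00442%) or e6 (0.0796%, 0.0442% higher and 0.0354% lower) at 4 h. Ldha after e6 conidia at 4 h differed by -0.51 (limma, adjusted p = 0.337) and was called at -0.80 without KO mock array 3 (limma, adjusted p = 0.0134). Quantile scaling gave 24 probe sets higher and 92 lower for e6 at 4 h, against 10 and 8 as deposited.

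None of the genes called in WT macrophages 4 h after e7 conidia was called in KO macrophages, where 0.00442% of all probe sets were. With so few calls on the whole array, the missing calls say nothing about these genes in particular. Ldha was 12.87, 13.05 and 13.15 on the KO e7 arrays, against 13.13, 13.11 and 12.27 on the KO mock arrays (0.19 ± 0.17, limma, adjusted p = 0.885). Pdk1 was 10.08, 9.52 and 9.64 after e7 conidia, against 9.68, 9.29 and 9.67 after mock, so that the KO mock arrays lay within or below the range of the WT e7 arrays (9.64 to 10.14). KO group means after e7 conidia and after mock were 11.77 and 11.71 for Hif1a, 6.89 and 7.31 for Ndrg1 and 10.81 and 10.94 for Aldoc. Pfkl, which missed the threshold in WT as well (0.70), was 9.86, 10.48 and 10.31 after e7 conidia in KO. After mock it was 9.37, 9.78 and 9.21, without overlap (0.76 ± 0.29, limma, adjusted p = 0.54). The difference between the genotypes in the response was tested directly. At 4 h no member was called (0.19% of probe sets called), and the nearest were Ndrg1 (-2.17 ± 0.62, limma, adjusted p = 0.0766), Pdk1 (0.82 ± 0.25, limma, adjusted p = 0.0904) and Aldoc (1.15 ± 0.37, limma, adjusted p = 0.105). Without WT e7 array 4 both Ndrg1 (-2.47) and Aldoc (1.29) were called, and without WT e7 array 1 Aldoc was (1.38). The Aldoc value was 0.75 without WT e7 array 3 (limma, adjusted p = 0.293), and that of Ndrg1 ran from -2.62 to -1.63 over the single-array removals, the smallest without WT mock array 4. At 2 h Eno2 alone was called (5.04 ± 1.31, limma, adjusted p = 0.0414; 1.45% of probe sets called), from dim signals, and the call was lost in 12 of 14 single-array removals (all but WT e7 array 4 and WT mock array 1; highest adjusted p = 0.0942). Quantile scaling moved the median of all probe sets by -0.26 there and gave 81 called higher and 92 lower, against 268 and 59 as deposited.

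The mock treatment itself gave no call among the members against untreated mice in either genotype or at either time. The shares of all probe sets called were 0.00442% (KO, 2 h), 1.2% (KO, 4 h, 1.1% higher and 0.102% lower), 0.00442% (WT, 2 h) and 0.0133% (WT, 4 h). At 4 h, 24 of 29 differences were positive in each genotype, with a median of 0.15 in KO, against 0.14 over all genes, and of 0.13 in WT, against -0.01 over all genes. In KO the 4 h mock arrays are among those that lay apart on the first component of all arrays (54.78 to 89.63). The KO untreated arrays are not (-31.52 to -23.89), so the mock treatment and this shift cannot be told apart. Slc2a1 in WT was 8.33, 8.73, 9.66 and 7.78 in mock mice at 4 h, against 7.59, 7.96, 7.78 and 7.52 in untreated mice (0.92 ± 0.25, limma, adjusted p = 0.256). The highest of these mock arrays is the one with high neutrophil markers, without which the difference was 0.57; without mock array 4 it was 1.20 and called (limma, adjusted p = 0.0318). Quantile scaling moved the median of all probe sets by -0.16 in KO at 4 h and gave 81 called higher and 62 lower, against 248 and 23 as deposited.

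More members were called between the genotypes than in any comparison of conidia, from 49 arrays, 12 of the 21 KO arrays among them lying apart on the first component of all 51 arrays. As a mean over the 7 conditions that both genotypes had, 10 of 29 genes were higher in KO and 5 were lower, against 21.9% of all probe sets called higher and 11.6% called lower (33.4% in all). The share of members called was 51.7%, against 35% of all genes. Higher in KO were Slc2a1, Pfkl, Aldoc, the mutase Pgam1, Eno2, the lactate dehydrogenase subunit Ldhb, Vegfa, Ndrg1, the collagen prolyl hydroxylase P4ha1 and Adm. Lower in KO were the platelet-type phosphofructokinase Pfkp, Pfkfb3, which makes the activator of phosphofructokinase, Pdk1, Egln1 and the mitophagy receptor Bnip3. Hif1a did not pass the test (0.06 ± 0.07, limma, adjusted p = 0.559), nor did the enzymes Aldoa, Tpi1, Pgk1, the pyruvate kinase Pkm or Ldha, whose differences lay between 0.00 and 0.11 in size. Such a mean can hide differences of opposite sign. Hif1a differed by 0.28 in untreated mice and by -0.49 at 4 h after e7 conidia, without overlap in either. At 4 h after e7 conidia Pkm differed by 0.70 and Tpi1 by 0.58, with overlap. Single conditions were not tested between the genotypes.

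**Figure D4:**
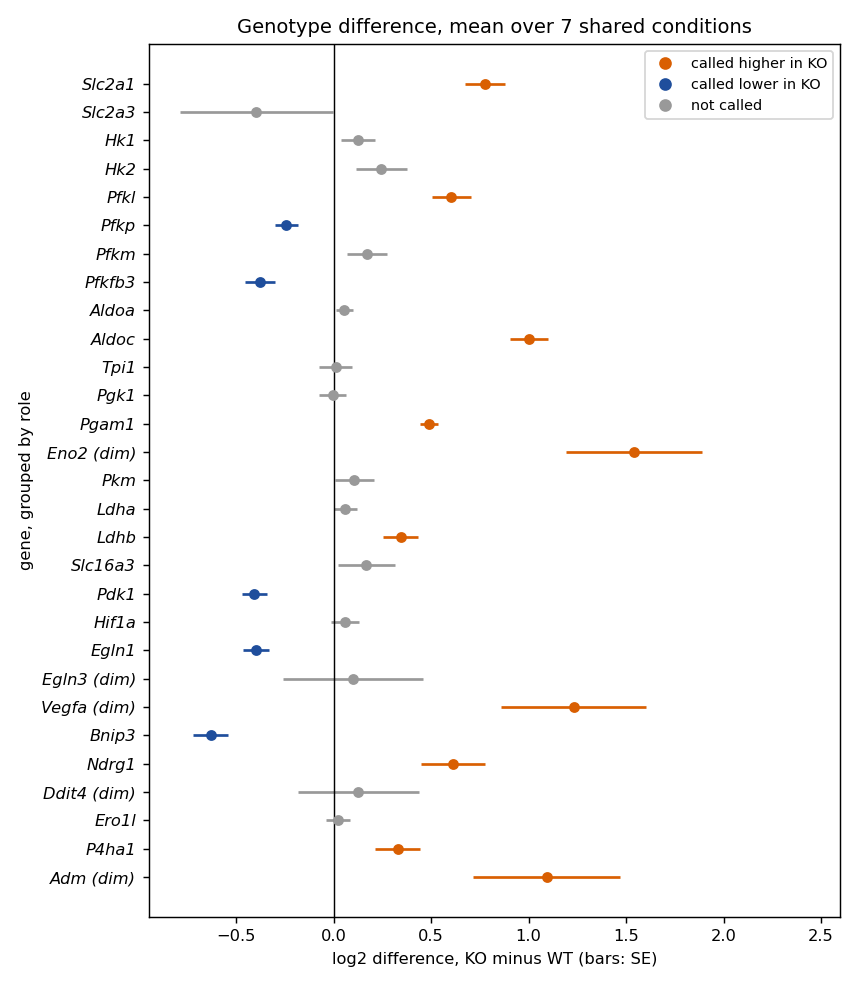
Log2 difference between KO and WT for the 29 genes, as a mean over the 7 shared conditions (points) with the standard error from limma (bars). Orange genes were called higher in KO, blue genes lower and grey genes were not called; "dim" marks genes with a signal of 50 or more on fewer than 26 arrays. Called genes fall on both sides of 0, and Aldoc (1.003) and Slc2a1 (0.78) are the highest of the well-measured genes.

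Pgam1, which moves the phosphate of phosphoglycerate, separated the genotypes completely. Its signal ranged from 11.15 to 11.80 (median 11.40) on the 21 KO arrays, against 10.61 to 11.13 (median 10.93) on the 28 WT arrays of the shared conditions. All 21 KO arrays lay above all 28 WT arrays, and the difference was 0.49 ± 0.05 (limma, adjusted p = 1.78e-10), a 1.40-fold higher signal. The difference was similar from condition to condition, from 0.37 in untreated mice to 0.65 at 4 h after e7 conidia. Conidia and mock did not move Pgam1 past the threshold in either genotype.

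Aldoc ranged from 10.26 to 11.12 (median 10.86) in KO, against 7.61 to 10.48 (median 9.85) in WT, and the 2 genotypes did not overlap within any of the 7 conditions. The difference was 1.003 ± 0.10 (limma, adjusted p = 2.83e-10), a 2.00-fold higher signal. It was 0.65 to 1.0 in 6 conditions and 2.01 at 4 h after e7 conidia. The dimmer Aldoc probe set differed by 0.19 (limma, adjusted p = 0.269), so this difference rests on the brighter set. Slc2a1 ranged from 8.43 to 9.78 (median 9.003) in KO, against 7.31 to 9.82 (median 7.95) in WT. It was higher in KO by 0.78 ± 0.10 (limma, adjusted p = 1.91e-07), and its 3 probe sets all were. The size varied with time: the genotypes did not overlap in untreated mice and in the 3 groups at 2 h, with differences of 0.87 to 1.25, and overlapped in the 3 groups at 4 h, with differences of 0.09 to 0.53. Pfkl was higher by 0.60 ± 0.10 (limma, adjusted p = 1.46e-05), and its second probe set was higher in this mean as well. The brighter set was higher in all 7 conditions.

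Bnip3 ranged from 8.46 to 9.60 (median 9.29) in KO, against 9.30 to 10.66 (median 9.80) in WT. It was lower in KO by a difference of -0.63 ± 0.09 (limma, adjusted p = 6.51e-07), a 1.55-fold lower signal, in all 7 conditions and without overlap in 5. Pdk1 ranged from 9.23 to 10.08 (median 9.67) in KO, against 9.52 to 10.83 (median 10.02) in WT, with a difference of -0.41 ± 0.07 (limma, adjusted p = 9.16e-06) that was negative in all 7 conditions and called in both probe sets. It was largest at 4 h after mock (-0.97) and smallest at 4 h after e7 conidia (-0.15). Egln1 ranged from 9.56 to 10.54 (median 9.98) in KO, against 9.93 to 11.21 (median 10.35) in WT (-0.40 ± 0.07, limma, adjusted p = 1.3e-05), and was lower in KO in all 7 conditions. Pfkp (-0.24) and Pfkfb3 (-0.38) were lower in 6 of 7 conditions. As a mean over its probe sets Pfkp differed by -0.13 and was not called (limma, adjusted p = 0.418). The dimmer Pfkfb3 probe set ran the other way (0.74, limma, adjusted p = 0.00072), so no direction for Pfkfb3 holds over both sets.

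**Figure D5:**
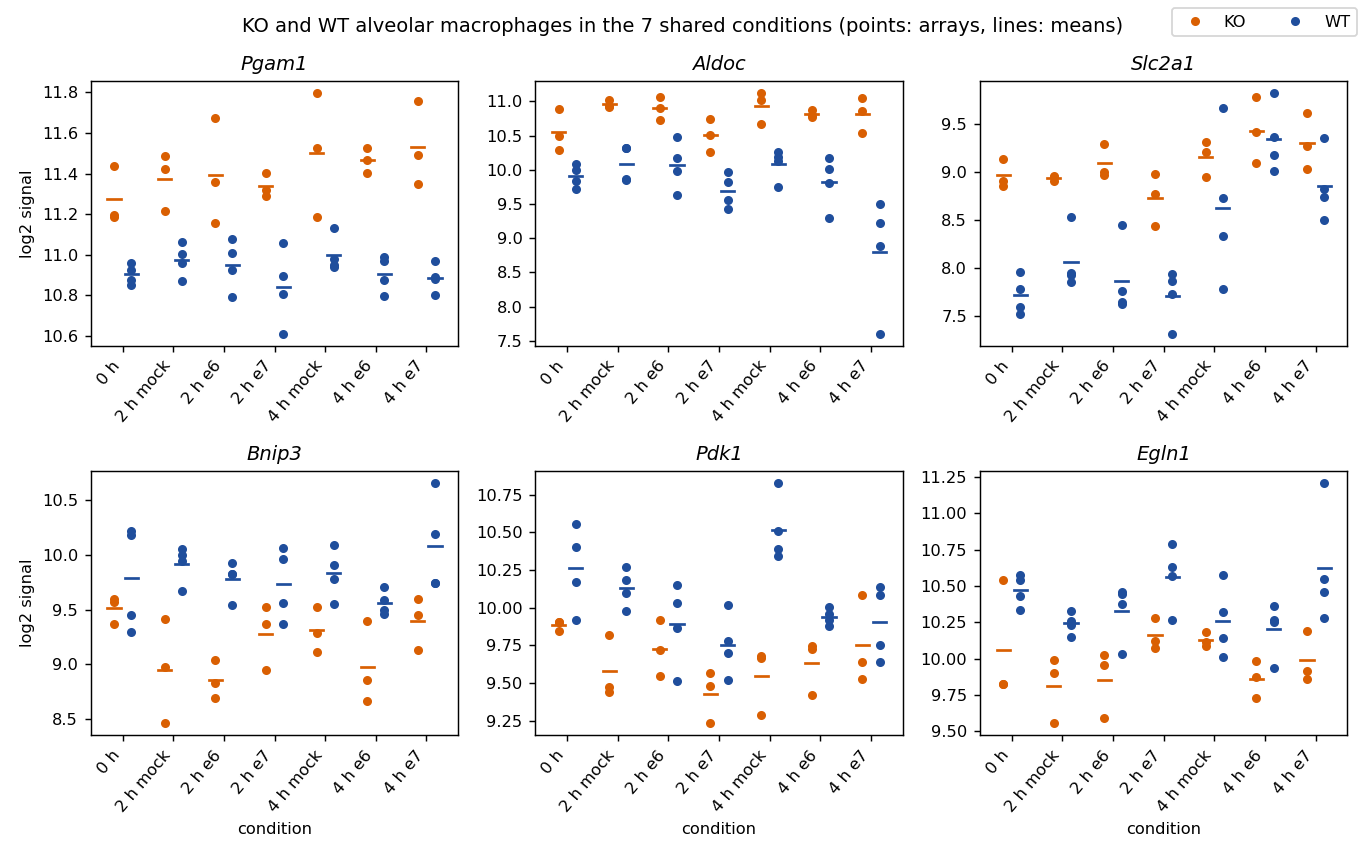
Log2 signal of 6 genes on each array in the 7 shared conditions, KO (orange) left of WT (blue); points are arrays and lines are means. Pgam1 and Aldoc are higher in KO in every condition without overlap, Slc2a1 separates the genotypes at 0 h and 2 h but not at 4 h, and Bnip3, Pdk1 and Egln1 are lower in KO.

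All 15 genes kept their genotype call in each of the 49 single-array removals. Without the 12 KO arrays that lay apart, as a mean over the 3 conditions left, 7 genes were called, 4 higher and 3 lower, and 8.32% of all probe sets (915 higher and 967 lower). These 7 were Slc2a1 (1.12), Ndrg1 (1.04), Aldoc (0.78), Pgam1 (0.40), Pdk1 (-0.36), Egln1 (-0.43) and Bnip3 (-0.72), and they kept their call under every alternative tried. The 3 conditions left were untreated, 2 h mock and 2 h e6, so none was at 4 h. Ndrg1 was higher in KO in 6 of the 7 shared conditions. Its difference was 0.26 at 4 h after e6 conidia and -1.15 at 4 h after e7 conidia. In that fit Pfkl (0.51, limma, adjusted p = 0.0513), Pfkfb3 (-0.36, limma, adjusted p = 0.0597) and Pfkp (-0.28, limma, adjusted p = 0.0676) missed the threshold, Ldhb was 0.16, P4ha1 0.34, and the dim Eno2, Vegfa and Adm were 0.79, 1.60 and -0.15. Quantile scaling moved the median of all probe sets by -0.15 and turned the split of all called probe sets to 2847 higher and 3721 lower, against 4945 and 2617 as deposited; among the members it gave 7 higher and 5 lower, with Ldhb, Vegfa and Adm no longer called. With signals under 50 set to 50, the dim genes Eno2, Vegfa and Adm were not called, and their differences were 0.01, 0.03 and 0.05. P4ha1 (0.33 ± 0.11, limma, adjusted p = 0.0258) was also not called with the replicate number as a block (0.29), as a mean over its probe sets (0.22), without the 3 arrays with high neutrophil markers (0.26) or without WT 4 h e7 arrays 2 and 3 (0.26).

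Markers of other cells also differed between the genotypes, in a comparison where 35% of all genes were called. Of all probe sets, 21.9% were called higher in KO and 11.6% lower. Summed neutrophil marker signal in the 7 shared conditions was 11.97 to 13.04 in KO and 11.69 to 14.87 in WT, with 2 of 14 markers called higher in KO and 1 lower. By median, Fcgr3 (11.56) was the brightest of these 14 markers, ahead of Mmp8 (8.91), so it weighs heavily in the sum on most arrays. The removal of arrays high in this sum covered WT arrays at 4 h only, and the KO 4 h mock array at 13.04 was kept. Of 9 T and NK cell markers 6 were higher and 1 lower in KO, with a median of 1.35, a summed signal of 7.50 to 9.36 in KO and 6.85 to 8.05 in WT, and 0 to 5 and 0 to 2 markers at 50 or more. Of 8 endothelium and stroma markers 5 were higher, with a median of 0.61, a summed signal of 6.81 to 8.84 in KO and 6.52 to 7.71 in WT, and again 0 to 5 and 0 to 2 at 50 or more. Of 9 monocyte and dendritic cell markers 4 were higher, with a median of 0.80, a summed signal of 8.92 to 10.34 in KO and 8.35 to 9.50 in WT, and 3 to 8 and 2 to 6 at 50 or more. Lung epithelium had 1 of 10 higher and 2 lower, alveolar macrophages 3 of 12 higher and 2 lower, and no B cell or erythroid marker was called. The part of these cells in the genotype differences was not tested, and the markers were not tested without the 12 KO arrays that lay apart.

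Slc2a3, a high-affinity glucose transporter, was not called in any comparison, but its signal was uneven between arrays. It was 11.92 on WT 4 h mock array 3, 9.72 on e6 array 4 and 9.22 on e7 array 3, against 4.08 to 7.15 on the other 48 arrays. These are the 3 arrays with the highest summed neutrophil markers. The part of neutrophils in this signal was not tested. Without those arrays no comparison called Slc2a3. The other members not called in any of the 20 comparisons, with all arrays as deposited, were Hk1, Hk2, the muscle phosphofructokinase Pfkm, Pgk1, Pkm, the lactate exporter Slc16a3, Egln3, Ddit4 and Ero1l. Their group means ranged from 7.87 to 8.59 for Hk1, from 9.19 to 10.14 for Hk2, from 6.22 to 7.11 for Pfkm, from 12.27 to 12.82 for Pgk1 and from 10.90 to 11.74 for Pkm. The ranges were 5.83 to 6.84 for Slc16a3, 10.54 to 11.04 for Ero1l, and, dim throughout, 3.19 to 5.71 for Egln3 and 4.19 to 5.56 for Ddit4.

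Other genes of the same pathways were read from lists of neighbouring steps. Of 15 genes of the tricarboxylic acid cycle, which oxidises pyruvate carbon in mitochondria, 5 fell and 1 rose in WT macrophages 4 h after e7 conidia against mock, where 17.5% of all genes were called. The succinate dehydrogenase subunit Sdhb (-1.21), the fumarase Fh1 (-1.01), the malate dehydrogenase Mdh2 (-0.75), Idh3g (-0.53) and Suclg1 (-0.33) fell, and Sdha rose (0.39). Of 22 further genes of glycolysis and pyruvate handling, 4 fell, Mpc1, a subunit of the mitochondrial pyruvate carrier (-1.24), Pgm2, Pgm1 and Pdk3, and Pdha1 rose. Of 6 genes of the pentose phosphate pathway, Taldo1 fell (-0.31). Of 7 HIF regulators, the prolyl hydroxylase Egln2 rose (1.07) and the dim Epas1 fell. Of 24 further HIF targets, 3 rose, Bhlhe40 (0.82), Tfrc (0.85) and Ccng2 (0.61), and 6 fell, Angptl4 (-1.09), Car9 (-1.01), Mxi1, Fam162a, Mif and Kdm3a. Over single-array removals the cycle had 4 to 7 calls, glycolysis and pyruvate handling 2 (without e7 array 2, e7 array 3 or mock array 2) to 9 (without e7 array 4), and the pentose phosphate pathway 0 (without e7 array 2, e7 array 3 or mock array 3) to 3 (without e7 array 4). The HIF regulators had 1 (without e7 array 2 or 3 or mock array 1, 2 or 3) or 2, and the further HIF targets 5 (without mock array 3) to 10. None of these genes was called without e7 arrays 2 and 3. With the 3 arrays high in neutrophil markers left out the cycle had 0 higher and 3 lower, glycolysis and pyruvate handling 0 and 1, the pentose phosphate pathway 0 and 0, the HIF regulators 1 and 0 and the further HIF targets 1 and 3.

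Between the genotypes the same lists moved in both directions. Of the 22 further genes of glycolysis and pyruvate handling, 5 were higher in KO and 5 lower, where 35% of all genes were called. The highest of the well-measured ones was Pdk4, like Pdk1 a kinase that shuts pyruvate dehydrogenase, at 1.80 ± 0.10 (limma, adjusted p = 3.95e-17), followed by the lactate transporter Slc16a1 (0.70 ± 0.11, limma, adjusted p = 9.37e-06). Pdk1 and Pdk4 thus differed in opposite directions. Of 24 further HIF targets 8 were higher and 6 lower. Among these, Car12, Ak4, Plod2 and Lox (higher) and Pgf and Kdm4b (lower) were below 50 on most arrays. The well-measured ones that were higher were Tfrc (0.32), Bhlhe40 (0.30), Mxi1 (0.20) and Anxa1 (0.14). Those that were lower were Ccng2 (-0.38), Car9 (-0.25), Kdm3a (-0.18) and Higd1a (-0.15). The cycle had 1 higher (Ogdh) and 1 lower (Idh3g) of 15, the pentose phosphate pathway 1 lower (Rpia) of 6, and the HIF regulators 1 higher (the dim Epas1) and 2 lower (Crebbp and Cited2) of 7. Without the 12 KO arrays that lay apart the lists had 2 higher and 2 lower (glycolysis and pyruvate handling), 2 and 2 (further HIF targets), 0 and 1 (the cycle), 0 and 1 (pentose phosphate) and 1 and 1 (HIF regulators). Over single-array removals glycolysis and pyruvate handling had 7 to 11 calls, the further HIF targets 13 to 15 and the HIF regulators 2 to 4. The cycle had 2 to 4 (4 without WT 4 h e7 array 4). The pentose phosphate pathway had 1 to 3, with 3 without KO 2 h e6 array 3 and 2 without array 1 of WT untreated, KO 2 h e7, KO 4 h e6 or KO 4 h mock, array 2 of KO 2 h e7 or KO 4 h e6, or array 3 of WT 4 h e7 or KO untreated.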

How the data were processed

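RNA of alveolar macrophages was hybridized to Affymetrix mouse arrays after two-cycle labelling, per the labels' protocols. The values deposited by the authors are linear signal intensity; GCOS and RMA stand in the submitters' processing notes without version or role, and the trimmed mean of every array (2% off each end) lay between 500.183 and 500.241. The WT 4 h mock arrays were grouped by their titles, since their treatment field names conidia.

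Of 22690 probe sets, 64 controls were left out. The log2 of each value, without pseudocount or further scaling, entered a moderated linear model with 1 mean per group (limma 3.58.1, R 4.3.3), all 51 arrays, two-sided, with Benjamini-Hochberg adjustment over 22626 probe sets in each of 20 comparisons. The pooled spread understates the error of groups that vary more. The annotation gave 20380 probe sets 1 symbol, 691 several and 1555 none. RefSeq (GRCm38.p6) served for names, chromosomes and promoters. The fit was tested on simulated data. Arrays carry no depth; their number limits the precision. Any member could be named; of other lists, counts and called genes. Figures were drawn with matplotlib 3.10.9 (Python 3.11.15). Same-numbered arrays did not deviate together (correlations -0.07 to 0.08), so the numbers were not taken as pairs. With the replicate number as a block, 1593 probe sets were called for e7 against beads, against 812 without it. For KO against WT the block gave 7058, against 7562. The members, pathway lists and cell markers were chosen with earlier results of these data known. Alternatives were quantile scaling, a floor of 50, fits to single comparisons, a 3′/5′ covariate, a replicate block, gene means over probe sets, leaving out dim probe sets, array weights and single-array removals; removing the arrays with high neutrophil markers, the e7 arrays and the KO groups lying apart was added after seeing the data.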

Additional observations from a re-analysis of the deposited data

Results flagged for a closer look

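In 63 pairs of a gene and a group that were tested for a single array far from the others, 2 stood out, and chance alone flags about 1 in 20 such groups. Hif1a on WT 2 h e7 array 3 was 11.61, against 11.88 to 11.93 on the other 3 arrays of the group. Ndrg1 on WT 4 h e6 array 4 was 6.11, against 7.80 to 8.13 on the other 3; this array also had high summed neutrophil markers (13.82). The response of Eno2 to e7 conidia at 2 h differed between KO and WT by 5.04 on the log2 scale (limma, adjusted p = 0.0414), with most signals below 50 in both genotypes.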

How the results depend on the processing

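The genotype count was 15 of 29 genes in all 49 single-array removals and 12 to 15 under the other alternatives, except that it was 7 without the 4 KO groups that lay apart, a fit with fewer arrays and 3 conditions. Counts elsewhere moved as follows. For WT 2 h e7 against mock (2 called) quantile scaling gave 1, the fit to its own groups 0, the 3′/5′ covariate 0 and array weights 4. For WT 4 h e7 against mock (5) the fit to its own groups gave 0 and leaving out both e7 arrays that lay apart 1; for e7 against e6 (4) these gave 0 and 1. For WT 4 h e7 against beads (2) quantile scaling gave 1, its own groups 0, array weights 1 and the replicate block 4. For KO 2 h e7 against mock (1) quantile scaling, the floor of 50 and leaving out dim probe sets gave 0, gene means 2 and array weights 2. For the genotype difference in the 2 h response (1) quantile scaling, the floor, the 3′/5′ covariate and leaving out dim probe sets gave 0, and at 4 h (0) array weights gave 1. Comparisons without a call gained some: the floor gave 4 for beads against mock, 3 for e6 against beads and 3 for KO 4 h e6 against mock; the replicate block, gene means, leaving out dim probe sets and leaving out high-neutrophil arrays each gave 1 for beads against mock; leaving out those arrays gave 3 for e6 against beads and 2 for WT 4 h e6 against mock; and array weights gave 1 for WT 4 h mock against untreated. The replicate block moved no other count by over 1.5 times. In KO minus WT, Pfkfb3 turned to 0.18 when its probe sets were averaged and Adm to -0.15 without the 4 KO groups. The cause of these shifts was not tested. Over single-array removals the counts ran from 0 to 2 (WT 2 h e7), 4 to 7 (WT 4 h e7), 0 to 1 (WT 4 h e6), 0 to 1 (KO 2 h e7), 0 to 1 (KO 4 h e6), 0 to 3 (e7 against beads), 0 to 1 (beads against mock), 0 to 1 (WT 4 h mock against untreated), 2 to 6 (WT 4 h e7 against e6), and 0 to 1 and 0 to 2 (genotype difference in response at 2 h and 4 h). Signals below 50 limit what can be said of Eno2, Vegfa, Adm, Egln3 and Ddit4.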
